A study of Mus musculus with 12 samples.

Results

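Guanylate-binding proteins (GBPs) are large GTPases that cells make in response to interferons. The 8 genes described here, Gbp2, Gbp3, Gbp4, Gbp5, Gbp6, Gbp7, Gbp8 and Gbp9, were taken by symbol from the 55202 genes of the count table, a rule that uses no measured value, although the family was picked for description with earlier results of these data known. Interferon gamma can induce genes of this family through GAS elements in promoters and through the factor IRF1. Type I interferons can induce them through a complex with STAT2 and IRF9, which binds ISRE elements. In mouse macrophages the proteins assemble on the vacuoles of intracellular bacteria and of Toxoplasma together with immunity-related GTPases, and they promote the release of microbial products that caspases detect in the cytosol.

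The RNA libraries carried the labels DMBA3-4 TAM (6 libraries) and DMSO3-1 TAM (6 libraries), where TAM stands for tumor-associated macrophage. The cells were described as macrophages sorted from tumors of Rag1-/- mice, which lack T and B cells but keep natural killer cells. DMBA3-4 is a clone of a PyMt mouse mammary cancer line that had been exposed to the carcinogen DMBA, and DMSO3-1 is a clone of the same line exposed to the DMSO vehicle. Each line is 1 clone, so carcinogen exposure and differences between clones cannot be told apart. Whether the libraries came from different mice is not stated, so the spread that p-values rest on may be technical.

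Total counts were 3040452 to 4632817 per library in DMBA3-4 TAM and 2752005 to 3978901 in DMSO3-1 TAM. The label of macrophages was at odds with the counts. The 20 macrophage markers together held 0.00778% to 0.0131% of counts in DMBA3-4 TAM and 0.00614% to 0.00947% in DMSO3-1 TAM, and Ptprc (CD45), Itgam (CD11b) and Adgre1 (F4/80), whose proteins were used for the sort, had 0 to 7, 0 to 3 and 0 to 3 counts in DMBA3-4 TAM and 0 to 2 counts each in DMSO3-1 TAM. Of these markers 6 were tested, and 2 were higher in DMBA3-4 TAM, where 29.9% of all tested genes were. These were C1qb and Ctss, at log2 fold changes of 2.24 and 2.34, and their levels overlapped between the groups. Lyz2, Cd68, Cd14 and Mertk did not pass the threshold. The 10 epithelial markers held 0.152% to 0.215% of counts in DMBA3-4 TAM and 0.102% to 0.176% in DMSO3-1 TAM, and the 10 fibroblast markers held 0.129% to 0.194% in DMBA3-4 TAM and 0.163% to 0.229% in DMSO3-1 TAM. The epithelial share rests on few genes. Krt8 and Krt18 had 17828 and 24190 summed counts in DMBA3-4 TAM and 9811 and 16770 in DMSO3-1 TAM. Epcam was at 0 in all 12 libraries. Summed counts in DMBA3-4 TAM and DMSO3-1 TAM were 1 and 0 for Krt19. Of the 10 fibroblast markers 8 were tested, and several carried the fibroblast share. In the same order of groups, summed counts were 14797 and 11356 for Col3a1 and 7085 and 15267 for Pdgfrb. They were 6644 and 5081 for Col5a1 and 5859 and 6929 for Dcn, but 0 and 1 for Thy1 and 6 and 8 for Col1a2. The 10 natural killer cell markers reached at most 8.18e-05% in DMBA3-4 TAM and 0.000294% in DMSO3-1 TAM, with Nkg7, Klrd1 and Gzmb at 0 in all 12 libraries. Called markers moved both ways, with Fap (4.51) and Lum (2.26) of the fibroblast list and Krt8 (0.57) of the epithelial list higher in DMBA3-4 TAM, and Pdgfrb (-1.39), Cdh1 (-4.88) and Cldn3 (-3.31) lower. Cdh1 had 3 summed counts in DMBA3-4 TAM. It passed the filter on low counts only through the DMSO3-1 libraries, so its difference is built into its passing. The part of these cell types in the results was not tested, and the groups are therefore named as their libraries are labelled.

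The members lie in 2 clusters of the mouse genome (GENCODE M21 on GRCm38). Gbp5 (142493978 to 142522344), Gbp7 (142530342 to 142550149), Gbp3 (142560026 to 142573209) and Gbp2 (142620602 to 142638008) lie on the plus strand of chromosome 3. Gbp8 (105014150 to 105139540), Gbp9 (105077630 to 105139539), Gbp4 (105115767 to 105139586) and Gbp6 (105270702 to 105293698) lie on the minus strand of chromosome 5. Gbp4, Gbp8 and Gbp9 begin at nearly the same base and share 60 to 61 exonic bases there, so a read in that stretch cannot be assigned to 1 of them. All 8 are annotated as protein coding.

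Promoter windows of 250 bases before the start that RefSeq (GRCm38.p6) gives were read for Gbp2, Gbp3, Gbp5 and Gbp7, 4 of the 8 members, and not for Gbp4, Gbp6, Gbp8 and Gbp9. They are shown because they hold the letters of the element that interferon-activated factors bind. The RefSeq start lies 61 bases after the first base of the GENCODE gene in Gbp2, 18 in Gbp3 and 2956 in Gbp5, where other transcripts begin further upstream, and 6 bases before it in Gbp7. Capitals mark each match to the ISRE core, spelled TTTCNNTTTC and searched on both strands (GAAANNGAAA on the other). The windows are chr3:142620413-142620662 for Gbp2, chr3:142559794-142560043 for Gbp3, chr3:142530086-142530335 for Gbp7 and chr3:142496684-142496933 for Gbp5, all on the plus strand.
Gbp2: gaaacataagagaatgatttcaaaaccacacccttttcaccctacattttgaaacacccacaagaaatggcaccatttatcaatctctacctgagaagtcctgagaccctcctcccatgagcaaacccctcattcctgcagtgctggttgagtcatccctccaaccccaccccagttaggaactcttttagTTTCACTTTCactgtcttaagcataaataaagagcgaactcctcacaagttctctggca
Gbp3: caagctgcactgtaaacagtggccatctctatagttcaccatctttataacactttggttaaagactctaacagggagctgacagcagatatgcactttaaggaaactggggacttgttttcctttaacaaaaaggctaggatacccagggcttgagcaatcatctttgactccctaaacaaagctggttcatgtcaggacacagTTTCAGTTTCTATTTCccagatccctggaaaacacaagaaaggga
Gbp7: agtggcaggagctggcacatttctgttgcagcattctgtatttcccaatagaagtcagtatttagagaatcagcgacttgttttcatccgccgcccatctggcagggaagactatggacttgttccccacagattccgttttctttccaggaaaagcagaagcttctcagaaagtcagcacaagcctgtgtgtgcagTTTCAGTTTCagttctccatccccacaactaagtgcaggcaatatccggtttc
Gbp5: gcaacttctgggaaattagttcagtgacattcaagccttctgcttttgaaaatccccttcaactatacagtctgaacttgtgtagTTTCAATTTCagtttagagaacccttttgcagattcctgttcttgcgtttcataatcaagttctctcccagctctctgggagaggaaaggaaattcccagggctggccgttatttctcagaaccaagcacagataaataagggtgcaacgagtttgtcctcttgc
The match lay 59 to 50 bases before the RefSeq start in Gbp2, 53 to 44 in Gbp7 and 165 to 156 in Gbp5, while the Gbp3 window held overlapping matches at 45 to 36 and 39 to 30. A further Gbp3 window, at chr3:142560106-142560355, held none. The GAS letters TTCNNNGAA, which read the same on the other strand, were found in Gbp7 at 106 to 98 and 87 to 79 bases before the start and in Gbp5 at 245 to 237 and 52 to 44. Of all 32817 promoter windows of this length, 974 (2.97%) held the ISRE core and 2302 (7.01%) the GAS letters. Among tested genes with a window, 118 of 280 with the ISRE core (42.1%) and 2541 of 8264 without it (30.7%) were higher in DMBA3-4 TAM, and log2 fold changes above 2 were found in 39 genes with it (13.9%) and 236 without it (2.86%). The genes with the core include Gbp2, Gbp3 and Gbp7 themselves, so these shares are no separate support for the family. A match is a description of the letters and no evidence of binding, and the part of the element in the differences was not tested.

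Levels are given as CPM, the count scaled to the library size, and differences as log2 fold changes of DMBA3-4 TAM over DMSO3-1 TAM from edgeR's quasi-likelihood test, adjusted over 11511 tested genes. Of the 8 members, 5 had enough counts for that test, and all 5 were higher in DMBA3-4 TAM, where 29.9% of all tested genes were. None was lower, where 30.2% of all tested genes were, and none was lower at an unadjusted p under 0.05 or with DESeq2 or limma-voom. Gbp6 passed the filter on low counts only through the DMBA3-4 libraries, so its difference is built into its passing. Gbp3 reached the filter's minimum of 2.77 CPM in 6 DMBA3-4 libraries but only 3 DMSO3-1 libraries, so its passing also leaned on DMBA3-4 TAM. Every DMBA3-4 library lay above every DMSO3-1 library for all 5 tested members, Gbp2, Gbp3, Gbp6, Gbp7 and Gbp9, against 17% of all tested genes. It also did for Gbp4, to make 6 of the 8 members, but Gbp4 was not tested and the 17% does not cover such genes. In bulk RNA, more cells that express a gene and more RNA per cell cannot be told apart.

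Gbp2, a prenylated GBP that is recruited to pathogen vacuoles in mice, had the highest level of the family. It had 168 CPM in the lowest, 232 CPM at the median and 274 CPM in the highest DMBA3-4 library, against 13.4, 22.4 and 29.8 CPM in DMSO3-1 libraries. The groups were separated by a wide gap, since the lowest DMBA3-4 library exceeded the highest DMSO3-1 library 5.64-fold. Gbp2 averaged 230 ± 41.5 CPM in DMBA3-4 TAM and 21.6 ± 6.81 CPM in DMSO3-1 TAM (SD, n = 6 each). Its log2 fold change from edgeR was 3.41 (SE 0.20, 95% interval 2.98 to 3.84, adjusted p = 2.08e-09), or 10.7-fold.

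Gbp3, its neighbor on chromosome 3, differed by more but from a lower level. It had 68.3, 77.2 and 112 CPM in the lowest, median and highest DMBA3-4 library, against 0.88, 3.99 and 8.16 CPM in DMSO3-1 libraries. The DMSO3-1 libraries varied widely among themselves, with 3 to 27 counts each, while those of DMBA3-4 held 263 to 415. The log2 fold change of Gbp3 was 4.29 (SE 0.32, 95% interval 3.61 to 4.98, adjusted p = 5.93e-08 from edgeR), or 19.6-fold.

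Gbp7, which in mice takes part in defense against intracellular bacteria, had 36.1, 45.0 and 59.4 CPM in the lowest, median and highest DMBA3-4 library, against 5.78, 7.09 and 8.51 CPM in DMSO3-1 libraries. Both groups were tight, with coefficients of variation of 18.6% and 17.4%. Its log2 fold change was 2.67 (SE 0.17, 95% interval 2.30 to 3.04, adjusted p = 5.95e-09 from edgeR), or 6.35-fold.

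Gbp9 stood apart as the member with the smallest called difference and the highest DMSO3-1 level on chromosome 5. It had 31.6, 37.1 and 52.7 CPM in the lowest, median and highest DMBA3-4 library, against 12.1, 13.6 and 17.2 CPM in DMSO3-1 libraries. The gap between the groups was 1.84-fold at its narrowest. Its log2 fold change was 1.54 (SE 0.16, 95% interval 1.19 to 1.88, adjusted p = 1.29e-06 from edgeR), or 2.9-fold, and this interval does not overlap those of Gbp2, Gbp3, Gbp6 and Gbp7.

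Gbp6 was close to absent from DMSO3-1 TAM. It had 18 to 69 counts in DMBA3-4 libraries and 0 to 1 in DMSO3-1 libraries, of which 4 held 0. Its levels were 4.85, 12.7 and 14.6 CPM in the lowest, median and highest DMBA3-4 library, against 0, 0 and 0.366 CPM in DMSO3-1 libraries. The summed counts of 277 and 2 gave a ratio of 114 with an exact 95% counting interval of 31.3 to 946. The fitted log2 fold change of 6.40 (SE 0.53, adjusted p = 1.03e-07 from edgeR) depends on the prior count at such low levels. Of the 50-base stretches of Gbp6, 70.7% also occur in other annotated genes, with 65.0% of all stretches found in Gm43302 and 45.9% in Gbp10, so the share of reads that belongs to Gbp6 is uncertain. Gm43302 itself had 1 count in DMBA3-4 TAM and 0 in DMSO3-1 TAM.

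**Figure D1:**
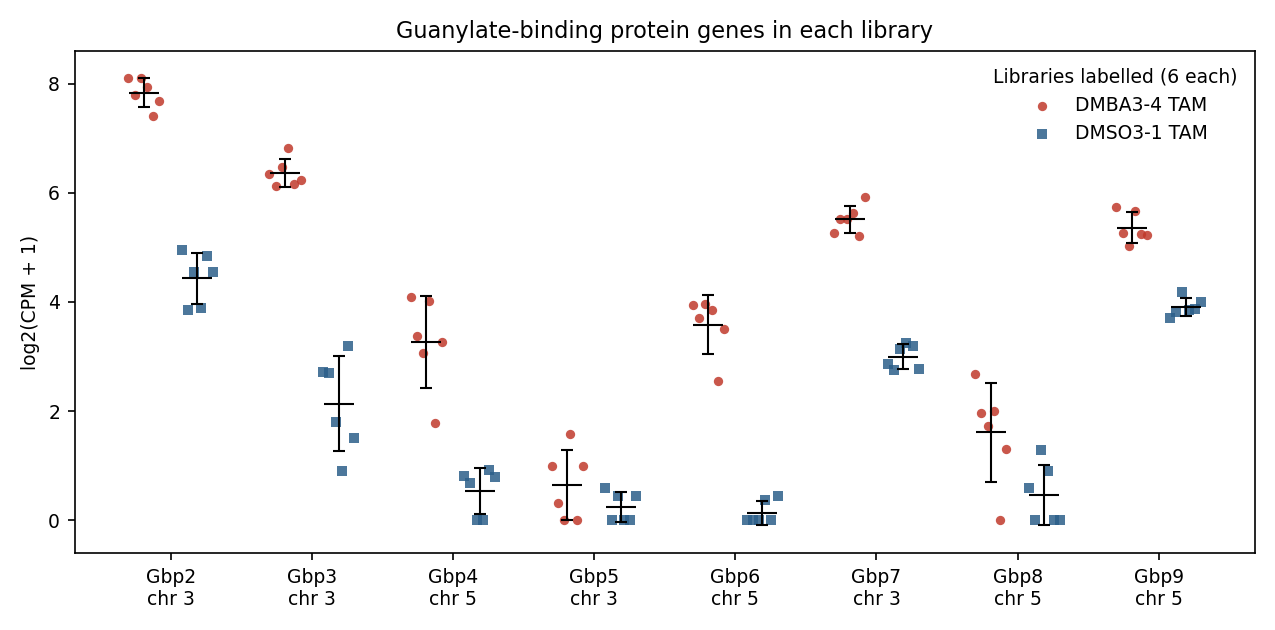
Level of each of the 8 genes in each library, as log2(CPM + 1), with the 6 DMBA3-4 TAM libraries as red circles left of the 6 DMSO3-1 TAM libraries as blue squares, and bars for the mean and SD of each group. The groups are apart for Gbp2, Gbp3, Gbp4, Gbp6, Gbp7 and Gbp9 and overlap for Gbp5 and Gbp8.

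The other 3 members had too few counts for the filter and were compared gene by gene on log2(CPM + 1) with an exact permutation test (two-sided, 924 arrangements of the libraries), which cannot give a p below 0.00216. Intervals of ratios of summed counts cover counting error only. Gbp4 had 9 to 65 counts in DMBA3-4 libraries (median 37) and 0 to 3 in DMSO3-1 libraries (median 2). All DMBA3-4 libraries lay above all DMSO3-1 libraries, at 2.43 to 16 CPM and 0 to 0.907 CPM. The ratio of its summed counts, 228 and 10, was 18.8 (10 to 39.7), and the exact permutation p was 0.00216. Of the DMBA3-4 libraries, only replicate 5 was under the filter's minimum of 2.77 CPM for Gbp4.

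Gbp8 overlapped between the groups. It had 0 to 22 counts in DMBA3-4 libraries (median 10) and 0 to 4 in DMSO3-1 libraries (median 1), and the DMBA3-4 library at 0 was again replicate 5. The ratio of summed counts, 60 and 9, was 5.49 (2.71 to 12.6), and the exact permutation p of 0.0303 was not adjusted. Without DMBA3-4 replicate 1 it was 0.0584, and without DMSO3-1 replicate 2, 5 or 6 it was 0.0563.

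Gbp5, which in mouse macrophages is tied to inflammasome assembly, was barely detected. It had 0 to 6 counts in DMBA3-4 libraries and 0 to 2 in DMSO3-1 libraries. Its ratio of summed counts, 15 and 4, was 3.09 with an interval of 0.983 to 12.8, and the exact permutation p was 0.229, so a difference was not detectable at this depth.

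**Figure D2:**
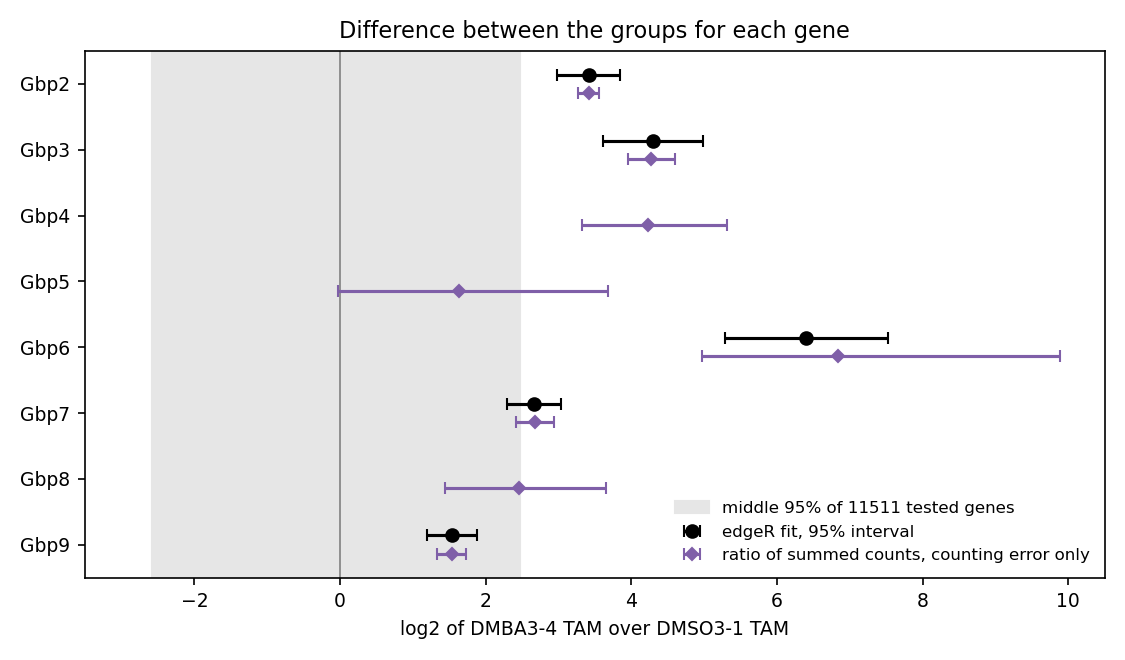
Log2 ratio of DMBA3-4 TAM over DMSO3-1 TAM for each gene, as the edgeR estimate with its 95% interval (black circles, tested genes) and as the ratio of summed counts with its 95% counting interval (purple diamonds), over a gray band that holds the middle 95% of all 11511 tested genes, -2.58 to 2.47. Gbp2, Gbp3, Gbp6 and Gbp7 lie right of the band, and Gbp9, at 1.54, lies within it.

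Of all 11511 tested genes, 0.46% had a fitted change as high as that of Gbp6, 1.23% as that of Gbp3, 1.69% as that of Gbp2, 2.24% as that of Gbp7 and 4.48% as that of Gbp9. Other genes of the family outside the 8 members were scarce. Gbp10, whose 50-base stretches are shared with Gbp6 for 73.3%, had 7 to 17 counts in DMBA3-4 libraries and 0 to 1 in DMSO3-1 libraries, with a ratio of summed counts of 55.1 (9.56 to 2210). Gbp2b had 3 counts in DMBA3-4 TAM and 0 in DMSO3-1 TAM, and Gbp11 had 6 and 1, which allows no fold change.

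Between genes, levels were compared per kilobase of exonic length. In DMBA3-4 TAM the order was Gbp2 (91.5 ± 16.5 CPM per kb), Gbp3 (25.2 ± 4.91), Gbp7 (8.05 ± 1.5), Gbp9 (7.89 ± 1.61), Gbp6 (1.95 ± 0.612), Gbp4 (1.31 ± 0.675), Gbp8 (0.732 ± 0.523) and Gbp5 (0.106 ± 0.118). In DMSO3-1 TAM it was Gbp2 (8.57 ± 2.71 CPM per kb), Gbp9 (2.72 ± 0.343), Gbp7 (1.26 ± 0.220), Gbp3 (1.25 ± 0.851), Gbp8 (0.136 ± 0.172), Gbp4 (0.0668 ± 0.0533), Gbp5 (0.0308 ± 0.0347) and Gbp6 (0.0185 ± 0.0289), each as SD with n = 6. Gbp2 was first in all 12 libraries. Gbp3 was second in all 6 DMBA3-4 libraries and Gbp9 in all 6 DMSO3-1 libraries. Neighbors whose ranges overlapped were Gbp7 and Gbp9, Gbp6 and Gbp4, Gbp4 and Gbp8, and Gbp8 and Gbp5 in DMBA3-4 TAM, and Gbp7 and Gbp3, Gbp3 and Gbp8 and all neighbors among the last 4 in DMSO3-1 TAM.

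**Figure D3:**
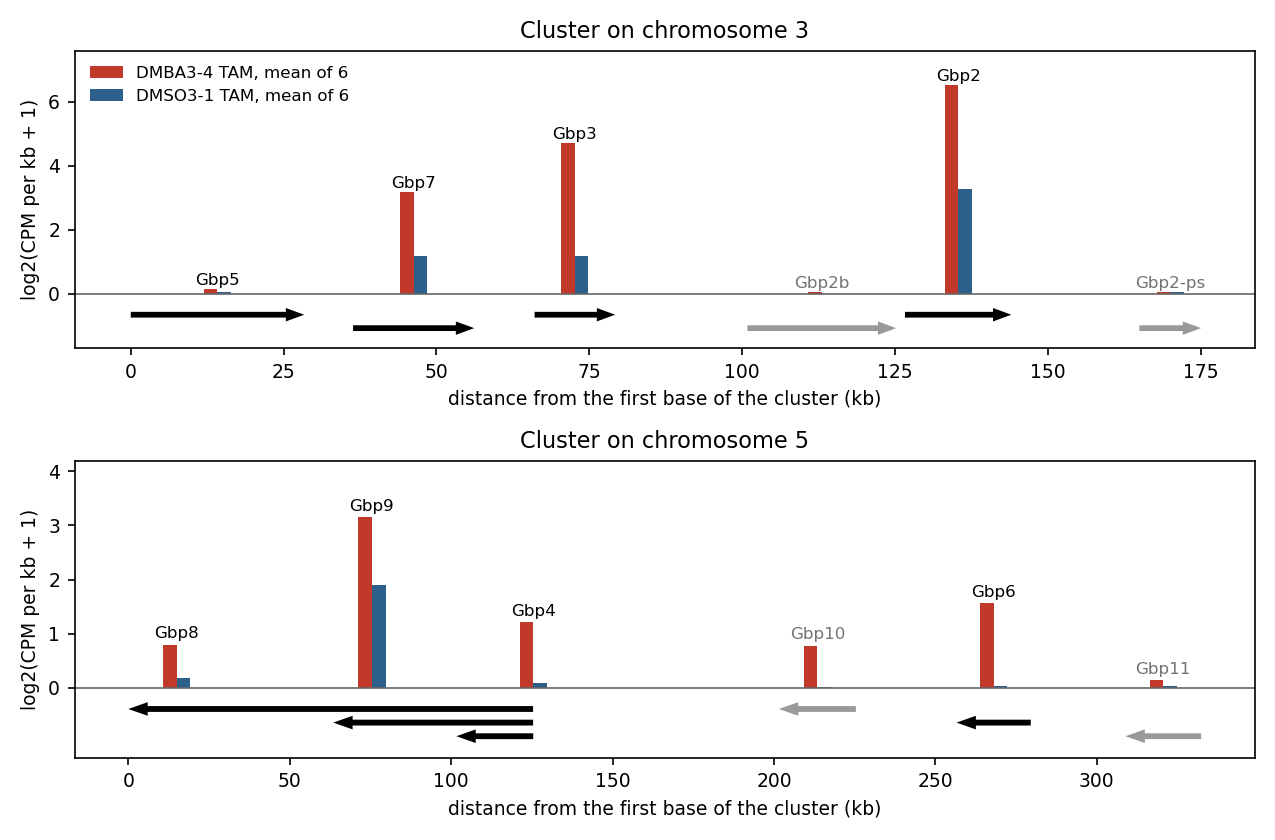
The gene clusters on chromosome 3 and chromosome 5, with each gene drawn to scale as an arrow in its direction of transcription (black for the 8 members, gray for other Gbp genes) against the distance from the first base of the cluster in kb. Bars give the mean of 6 libraries as log2(CPM per kb + 1), DMBA3-4 TAM in red left of DMSO3-1 TAM in blue, and the bars of Gbp4, Gbp8 and Gbp9 stand at the part of the overlapping genes that is their own.

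The make-up of the family also differed. Summed over the 8 members, the libraries held 319, 428 and 488 CPM (lowest, median and highest) in DMBA3-4 TAM and 37.8, 49.1 and 58.4 CPM in DMSO3-1 TAM. The chromosome 3 members took 81.6% to 87.9% of that sum in DMBA3-4 libraries and 61.2% to 75.9% in DMSO3-1 libraries. The share of Gbp9 was 6.85% to 11.5% in DMBA3-4 libraries and 21.8% to 35.7% in DMSO3-1 libraries, and that of Gbp3 was 16.7% to 22.9% in DMBA3-4 libraries and 2.33% to 14.3% in DMSO3-1 libraries. The share of Gbp2 overlapped, at 50.2% to 59.2% in DMBA3-4 libraries and 34.9% to 53.6% in DMSO3-1 libraries. There were 4.58 to 8.65 counts of Gbp2 for each count of Gbp9 in DMBA3-4 libraries and 1.02 to 2.46 in DMSO3-1 libraries.

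DMBA3-4 replicate 5 was the lowest of its group for 5 of the 8 members (Gbp2, Gbp4, Gbp6, Gbp7 and Gbp8). It also held 55 counts of Cldn3 and 3 of Cdh1, epithelial junction genes with 0 counts in the other 5 DMBA3-4 libraries and with 70 to 105 and 12 to 24 counts in DMSO3-1 libraries, and the part of this in the levels of that library was not tested. Without this library the log2 fold changes were 3.49 for Gbp2, 4.34 for Gbp3, 6.56 for Gbp6, 2.73 for Gbp7 and 1.57 for Gbp9. Gbp4 then passed the filter and was higher at 4.37 (adjusted p = 1.10e-06 from edgeR). It passed only through DMBA3-4 libraries, so its difference is built into its passing. Gbp4 also passed when any single DMSO3-1 library was left out, so its passing was not particular to DMBA3-4 replicate 5. DMSO3-1 replicates 1 and 6 had been set apart from the other 4 by an earlier look at the data. Without them the 5 tested members were at 3.59, 4.27, 6.71, 2.59 and 1.53 in the same order, and without DMSO3-1 replicates 2 to 5 they were at 3.07, 4.31, 5.94, 2.83 and 1.54.

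**Figure D4:**
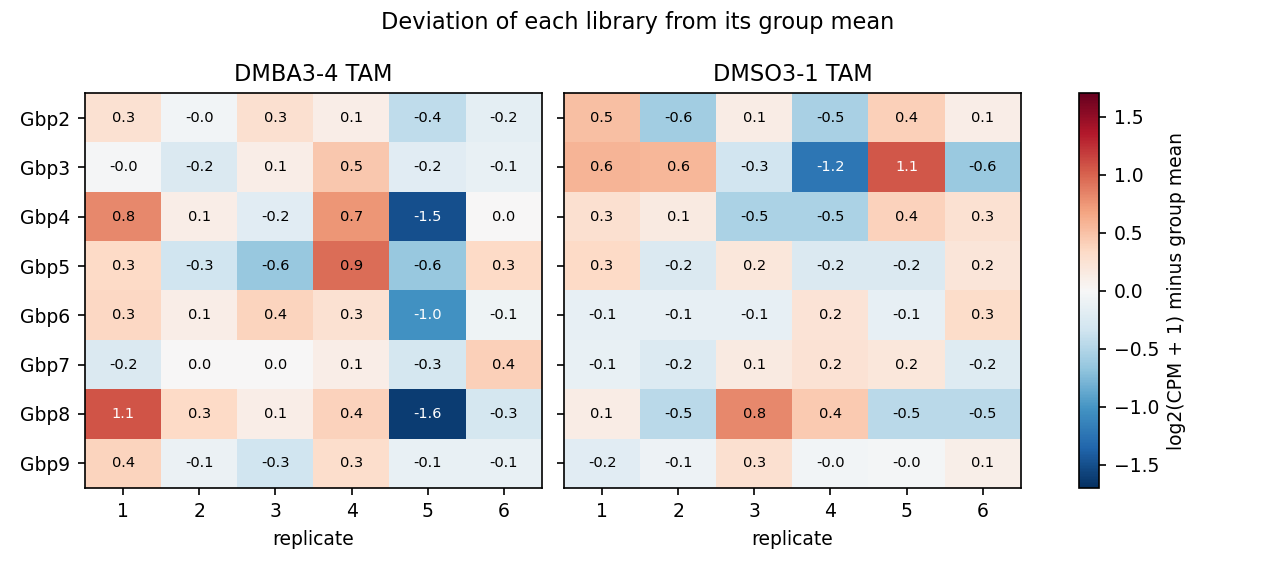
Deviation of each library from the mean of its group in log2(CPM + 1), for the 8 genes in rows and the 6 replicates of DMBA3-4 TAM (left) and of DMSO3-1 TAM (right) in columns, with red above and blue below the mean. DMBA3-4 replicate 5 lies lowest of its group for Gbp4 (-1.49), Gbp6 (-1.03) and Gbp8 (-1.62).

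The signaling genes that lead from interferon receptors to GBPs moved in both directions. Of 18 tested genes of that list, 6 were higher and 6 lower in DMBA3-4 TAM, counts close to the background of 29.9% higher and 30.2% lower over all tested genes, with a median log2 fold change of -0.22, against 0.00 over all tested genes. Stat2 and Irf9, whose proteins act in the complex that binds ISRE elements, were higher at 1.93 and 2.18. Irf7, an interferon-induced activator of type I interferon genes, was at 4.07, and Usp18, which restrains signaling at the type I receptor, was at 5.38. Irf1, which drives GBP genes after interferon gamma, had 362 to 679 CPM in DMBA3-4 libraries and 183 to 430 CPM in DMSO3-1 libraries, so the groups overlapped. Its log2 fold change was 0.67 (SE 0.23, adjusted p = 0.019 from edgeR), and without DMSO3-1 replicates 2 to 5 it was 0.33 (adjusted p = 0.338) and without DMBA3-4 replicate 1 it was 0.56 (adjusted p = 0.0532). Socs3, a suppressor of cytokine signaling, was lower at -1.85 and Irf8, a transcription factor of myeloid cells, at -1.39. Of the 4 receptor genes, Ifnar1, named after its values were seen, was lower at -0.57, and the others did not pass the threshold.

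The interferon genes themselves had too few counts to be tested. Ifng had 1 count in DMBA3-4 TAM and 0 in DMSO3-1 TAM. Ifnb1, which encodes interferon beta, had 0 to 10 counts in DMBA3-4 libraries and 0 in all DMSO3-1 libraries, so it was at least 8.23-fold higher against a floor of 3 counts over the group. The exact 95% counting interval of that ratio, which also covers the counting error of DMBA3-4 TAM, starts at 6.29. Of the 10 genes of the list, 5 were at 0 in all 12 libraries (Ifna1, Ifna5, Ifnl2, Ifnl3 and Ifnk).

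Of 5 tested immunity-related GTPases, 4 were higher in DMBA3-4 TAM, where 29.9% of all tested genes were, with a median of 3.19. The regulator Irgm1, which keeps effector GTPases off the cell's own membranes, was at 2.40 and the effector Iigp1, which is loaded onto pathogen vacuoles, at 4.75. Irgq, the 5th, did not pass the threshold, at -0.27 (adjusted p = 0.232 from edgeR), and was at 0.15 without DMSO3-1 replicates 2 to 5. It was lower without DMSO3-1 replicate 6 (-0.39, adjusted p = 0.0481 from edgeR) and without replicates 1 and 6 (-0.44, adjusted p = 0.0265). Tgtp1 and Tgtp2, effectors with 0 counts in all DMSO3-1 libraries, were at least 11.5-fold and 17.3-fold higher by the same floor, with counting intervals that start at 8.96 and 13.6, and they are near-identical copies whose reads may be split between them. Of the list of atlastins and Mx GTPases, 3 were higher and 2 lower, where 29.9% and 30.2% of all tested genes were. Mx1 and Mx2, antiviral dynamin-like GTPases, were higher at 8.03 and 4.32, and Mx1 had 530 summed counts in DMBA3-4 TAM and 1 in DMSO3-1 TAM, a ratio of 436 with a counting interval of 77.9 to 17300. The fitted value of Mx1 rests on that 1 count, and was 9.34 without DMSO3-1 replicate 4 and 6.81 to 9.40 over 24 alternatives. Mx1 also passed the filter only through the DMBA3-4 libraries, so its difference is built into its passing. Among the atlastins, GTPases of the endoplasmic reticulum related to GBPs in structure, Atl1 was higher at 1.07 and Atl2 and Atl3 were lower at -0.43 and -1.40, and the call of Atl2 was lost without DMSO3-1 replicates 1 and 6 (-0.38, adjusted p = 0.0531 from edgeR), with no filter on low counts (-0.38, adjusted p = 0.135) and at a threshold of 0.01.

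Of 10 inflammasome and pyroptosis genes, on which GBPs act in infected macrophages, 6 were tested. Of these, 4 were higher and 1 lower in DMBA3-4 TAM, with a median of 1.27. Over all tested genes 29.9% were higher and 30.2% lower. Zbp1, a sensor of nucleic acids, was higher at 3.04, and Gsdmd, which forms the pore of pyroptosis, was higher at 1.64. Casp4, which encodes the mouse caspase 11 that detects lipopolysaccharide, was at 0.83 (adjusted p = 0.0718 from edgeR), and passed the threshold under 5 of 24 alternatives. Pycard, the adaptor ASC, was lower at -3.74, with 2 to 12 counts in DMBA3-4 libraries and 11 to 106 in DMSO3-1 libraries, and without DMSO3-1 replicates 2 to 5 it was at -1.79 (adjusted p = 0.0213 from edgeR). Nlrp3 was at 0 in all 12 libraries.

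Genes that the GBPs depend on are read against the same background of 29.9% higher and 30.2% lower. Prenylation enzymes attach the lipid anchors of some GBPs or process the protein end afterwards. Of 5 tested, 2 were lower, Icmt at -1.02 (-0.59 without DMSO3-1 replicates 2 to 5) and Rce1 at -0.46. Both act after the lipid is attached. The 3 genes of the attaching enzymes, Fnta, Fntb and Pggt1b, did not pass the threshold. Pggt1b, the highest, was at 0.35 (adjusted p = 0.0575 from edgeR, and past the threshold under 7 of 24 alternatives). Rce1 was no longer past the threshold without DMSO3-1 replicates 1 and 6 (adjusted p = 0.0527). Of 12 tested genes of autophagy conjugation and vacuole ubiquitin, which help place GBPs on vacuoles, 5 were higher and 2 lower, with a median of 0.24. Map1lc3b was the highest at 0.72 (0.48 without DMSO3-1 replicates 2 to 5) and Traf6, a ubiquitin ligase, the lowest at -0.97, and the call of Traf6 was lost without DMSO3-1 replicates 2 to 5 (adjusted p = 0.131).

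**Figure D5:**
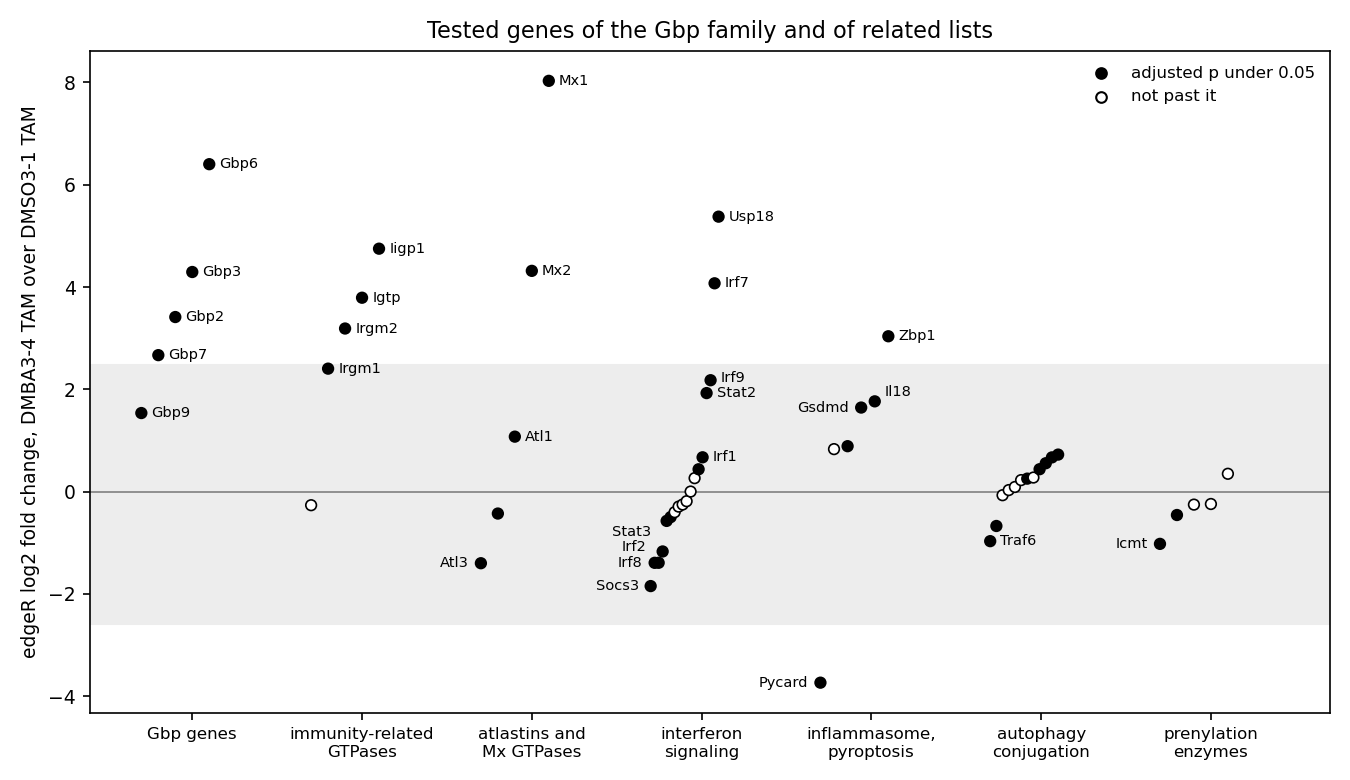
Log2 fold change of DMBA3-4 TAM over DMSO3-1 TAM from edgeR for the tested genes of the GBP family and of 6 related lists, filled where the adjusted p was under 0.05, over a gray band that holds the middle 95% of all tested genes. The tested GBPs, 4 of 5 immunity-related GTPases and both Mx genes are filled and above 0, at up to 8.03 for Mx1 (1 count in DMSO3-1 TAM), with Gbp9 and Irgm1 inside the band and Irgq at -0.27, while signaling genes run from -1.85 for Socs3 to 5.38 for Usp18.

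By Pearson r over the 12 libraries with the mean log2(CPM + 1) of the 5 tested members, the most alike genes were Thbs2 (0.996), Psmb8 (0.996), Ifi27l2a (0.995), Stc1 (0.995) and Trim30a (0.994). The libraries form 2 separate groups in these genes, so any gene with a clean group difference comes close to 1. After the group means were subtracted, the most alike were Gm26802 (0.941), Armt1 (0.933), Polr2d (0.901), Dap3 (0.892) and Gss (0.887), chosen from all tested genes. Among the 5 tested members themselves, r after subtraction ran from -0.156 for Gbp3 with Gbp6 to 0.465 for Gbp2 with Gbp3. Within a group of 6 libraries the values differed, with Gbp2 and Gbp6 at 0.933 in DMBA3-4 TAM and -0.31 in DMSO3-1 TAM, and Gbp3 and Gbp6 at 0.486 in DMBA3-4 TAM and -0.799 in DMSO3-1 TAM, where Gbp6 had 0 or 1 count per library. All of these values share the libraries' depth and scaling.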

How the data were processed

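RNA-seq libraries of 6 DMBA3-4 TAM and 6 DMSO3-1 TAM samples were compared. The authors deposited whole-number counts per gene, without normalization. The genome build GRCm38 (mm10) is from the submitters' processing notes, and no aligner or counter is given in the sources used here. The study's methods describe SmartSeq2, and the labels describe column purification with another library kit. A table of the authors' own test was also deposited, whose fold changes and p-values were not used here. Its mean normalized count per gene, a signal that the authors pooled over samples, has no SD. Its samples are named differently from those of the counts.

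The 19 entries with a number for a name (0.0893% to 0.128% of counts) were left out. Counts were filtered with filterByExpr, scaled by TMM and tested with edgeR 4.0.16 (robust quasi-likelihood, Benjamini-Hochberg adjustment over 11511 genes, threshold 0.05) in R 4.3.3. CPM are counts over the scaled library size, and a pseudocount of 1 CPM was used on the log2 scale. Exact permutation tests enumerated all arrangements in Python 3.11.15, and exact counting intervals came from scipy 1.17.1. Alternatives were DESeq2 1.42.0, limma-voom (limma 3.58.1), further scalings, filters and a stricter threshold, a replicate block, and leaving out libraries. The test was checked on simulated counts of 11511 genes for this comparison, with 81.4% recovered at 2-fold and 95.1% at 4-fold, with 5 false calls among 182. Only 97 genes were changed 2-fold and 103 genes 4-fold there, while 6918 genes were called in the data. The check therefore does not show how the scaling and the test behave with so many differences. The lowest chi-square per gene between libraries of a group was 2.56, so no pair agreed within sampling noise. The depth of 2752005 to 4632817 counts limits genes at a few counts per library.

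The members, gene lists and rules were chosen with earlier results of these data known. Named genes are the members, the other Gbp genes, Stat2, Irf1, Irf9, Casp4, Ifng and Ifnb1, of each pathway list the largest and smallest change and called genes up to 4, and the 5 genes most like the members by 2 measures. A gene that this rule names is withheld and not reported here. The alternatives for the list genes were added after the data were seen.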

Additional observations from a re-analysis of the deposited data

How the results depend on the processing

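Under 24 alternatives the count of members higher in DMBA3-4 TAM was 5 to 7 (5 to 6 when leaving out 1 library) and the count lower was 0. The member added when 1 library was left out was Gbp4. It passed the filter only through DMBA3-4 libraries, so its difference is built into its passing. The main fit called 29.9% of all tested genes higher. With no filter 8354 of 33387 genes were called in either direction, and shares by direction are not given for the alternatives. The log2 fold change ran from 3.07 to 3.65 for Gbp2, 4.07 to 4.79 for Gbp3, 5.64 to 6.96 for Gbp6, 2.58 to 2.83 for Gbp7 and 1.46 to 1.61 for Gbp9, and the largest adjusted p of any of these 5 was 0.000169. With no filter, 7 members were higher, with Gbp4 at 4.22 and Gbp8 at 2.41 (adjusted p = 0.000642 from edgeR), and DESeq2 gave 2.44 for Gbp8 (adjusted p = 0.0154), while without DMSO3-1 replicates 2 to 5 the adjusted p of Gbp8 was 0.0748. Gbp5 did not pass in either (adjusted p = 0.219 and 0.28). The count of members with an exact permutation p under 0.05 was 6 to 7 over 16 alternatives, 15 of which were added after the data were seen. No share over all genes stands beside this count, which describes the members alone. Without DMSO3-1 replicates 2 to 5 the smallest p that the exact permutation test can give is 0.0357. Over all genes 6918 were called, 4605 without DMSO3-1 replicates 2 to 5 and 7544 without DMSO3-1 replicates 1 and 6, and the cause was not tested. Irgq reversed without DMSO3-1 replicates 2 to 5 (0.15), and the cause was not tested.

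The labels give both groups replicate numbers 1 to 6, but same-numbered libraries did not deviate together (r = -0.161 to 0.134, 2 of 12 libraries best with their own number), so the numbers were not taken to pair the samples. With the replicate block 5 members were higher, at 3.44 for Gbp2, 4.36 for Gbp3, 6.40 for Gbp6, 2.65 for Gbp7 and 1.52 for Gbp9. Over all genes 6481 of 11511 were called in either direction with the block.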

Other observations

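The authors' deposited comparison table gives a mean normalized count pooled over its own samples. It lists Gbp7 at 536.0, Gbp2 at 391.3, Gbp3 at 353.3, Gbp9 at 240.3, Gbp8 at 146.1, Gbp4 at 119.1, Gbp5 at 25.41 and Gbp6 at 21.32 as the authors' mean. Per kilobase of exonic length the order of these means is Gbp2 (156), Gbp3 (108), Gbp7 (95.5), Gbp9 (46.4), Gbp8 (42.4), Gbp4 (15.9), Gbp5 (3.83) and Gbp6 (3.58). The macrophage markers hold 5.56% of the authors' means, and fibroblast markers 0.00333%.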
